A study of Mus musculus with 28 samples.

Results

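The effect of an Lmo2 transgene on messenger RNA of DN4 thymocytes was measured by RNA sequencing in 9 of the 28 libraries of a mouse series. The members are the 5 libraries labelled Lmo2tg at the DN4 stage and the 4 labelled wild type at the same stage, taken by their titles. The wild-type mice are C57BL/6 by the design text, and the Lmo2tg mice carry a transgene that expresses Lmo2, under a promoter not stated by the labels. Age, sex and the number of mice behind a library are likewise not given, and the labels do not say whether each replicate is another animal. The p-values thus measure only the spread among libraries, part of which may be technical. The other 19 libraries cover the DN2/3 stage of both genotypes and both stages of Lmo2tg mice with an Ldb1 deletion. They enter the shared fit, so the spread behind the p-values is pooled over all 28 libraries. The series' title places the study in thymocyte self-renewal and T-cell leukemia, and the labels do not say how the subsets were sorted. The labels name the cells CD4 T cells beside the subset name DN4, which is that of double-negative thymocytes.

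Double-negative thymocytes lack both surface coreceptors, CD4 and CD8. They pass from DN2 and DN3, when the T-cell receptor beta gene is rearranged, to DN4, when cells that have assembled a pre-TCR divide rapidly and then become double-positive cells. Lmo2 is an adaptor protein with LIM domains that binds Ldb1 and basic helix-loop-helix and GATA factors, assembling complexes on DNA in blood stem and progenitor cells. It is normally silenced as T cells commit, and its forced expression in thymocytes is a known route to T-cell leukemia in mice and in people.

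Lmo2 RNA followed the labels. It was at 0, 0.172, 0.0634 and 0.0761 CPM in the wild type against 68.9, 41.9, 37.7, 36.1 and 40.9 CPM in Lmo2tg (log2FC 9.13, SE 0.40, adjusted p = 2.46e-15), where log2FC is the fitted log2 fold change of Lmo2tg over wild type. Values are listed by replicate number throughout, 1 to 4 for wild type and 1 to 5 for Lmo2tg, in CPM, which bring each library's counts to a common total after TMM scaling. The groups did not overlap, and Lmo2tg replicate 1 was the highest of its group. Without wild-type replicate 2 the log2 fold change was 9.82. The native gene lies on mm10 chromosome 2, 103957986 to 103981878, on the plus strand in the annotation used here.

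Total counts were 67.8 to 81.66 M per wild-type library and 32.73 to 60.89 M per Lmo2tg library, and 14371 of 24421 gene symbols passed the filter on low counts. Lmo2tg libraries differed more among themselves: the median SD of log2 CPM over genes was 0.425, against 0.164 in wild type. The other groups of the shared fit had medians of 0.166 to 0.29, so that fit pools Lmo2tg DN4 with tighter groups. On the leading principal component, which held 60.9% of the variance, wild-type libraries lay between -89.3 and -75.3, and Lmo2tg libraries at 94.3, 57.5, 89.3, 20 and 70.9. Lmo2tg replicate 4 was thus nearest to wild type, a position it also took for many of the genes below. Wild-type library names follow another pattern than Lmo2tg names, so a library series would divide these samples as the genotype does, and they cannot be told apart. Xist, expressed from the inactive X chromosome, was at 0.293, 722, 849 and 1328 CPM in the wild type against 0.354, 1550, 0.401, 0.622 and 0.304 CPM in Lmo2tg. Ddx3y, a Y-linked gene, was at 65.6, 41.7, 15.4 and 8.61 CPM in the wild type against 144, 0, 188, 77.5 and 119 CPM in Lmo2tg. Wild-type replicates 2, 3 and 4 thus held RNA of both kinds, Lmo2tg replicate 2 held Xist with no count of Ddx3y, and the other 5 libraries were high in Ddx3y with Xist below 1 CPM. No sex gene of the 5 tested was called by edgeR (0 at an unadjusted p under 0.05, and 0 by DESeq2). Without Lmo2tg replicate 2, Xist was called lower, and over all genes 4139 were called higher and 3353 lower.

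**Figure D1:**
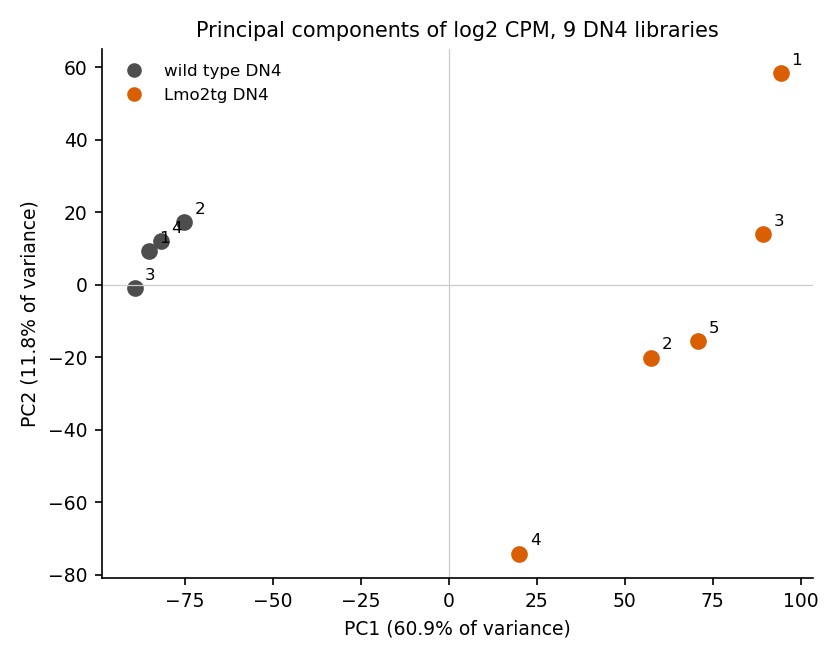
Principal components of log2 CPM over the 14371 tested genes in the 9 DN4 libraries, each point a library with its replicate number, and the axes giving component scores and the share of variance. The 4 wild-type libraries lie close together at the left, and the 5 Lmo2tg libraries spread from 20 to 94.3 on the horizontal axis.

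Genes of the surface markers that define the stage differed between the genotypes. Cd4, the coreceptor of helper T cells, was at 12, 4.08, 4.9 and 4.36 CPM in the wild type against 422, 45.5, 54, 13.4 and 27.8 CPM in Lmo2tg (log2FC 4.15, SE 0.89, adjusted p = 0.000468). Every Lmo2tg library was above every wild-type library, replicate 1 by far the most, and without it the log2 fold change was 2.48. Cd8a, a chain of the CD8 coreceptor, was at 57.5, 19.7, 27.2 and 29.9 CPM in the wild type against 742, 345, 217, 252 and 161 CPM in Lmo2tg (log2FC 3.36, SE 0.51, adjusted p = 1.12e-05), again with no overlap. Its partner chain gene Cd8b1 was at 155, 100.2, 98.7 and 125 CPM in the wild type against 338, 149, 98.3, 121 and 107 CPM in Lmo2tg, where only replicate 1 stood clear of wild type (log2FC 0.44, adjusted p = 0.28). Cd44, an adhesion receptor high in the earliest thymocytes, was at 0.615, 1.26, 0.951 and 0.799 CPM in the wild type against 30.4, 6.84, 12.3, 3.64 and 3.89 CPM in Lmo2tg (log2FC 3.66, SE 0.49, adjusted p = 2.01e-06), and at 2.88 on the log2 scale without replicate 1. Il2ra, the CD25 chain of the IL-2 receptor that marks DN2 and DN3 cells, was at 30.0, 55.4, 43.1 and 30.0 CPM in the wild type against 37.8, 54.7, 131, 54.6 and 77 CPM in Lmo2tg (log2FC 0.84, SE 0.30, adjusted p = 0.0199). The groups overlapped, and the call on Il2ra ended in a fit of the compared groups only (adjusted p = 0.075), with limma (0.0604) and without Lmo2tg replicate 3 (0.122), wild-type replicate 1 (0.0742) or 4 (0.0728). In wild type DN2/3, Il2ra ran from 1357 to 1654 CPM, so both DN4 groups were low in this marker. Cd3e, a chain common to pre-TCR and TCR, was at 288, 332, 319 and 268 CPM in the wild type against 349.9, 284, 324, 282 and 342 CPM in Lmo2tg and was not called (log2FC 0.07, adjusted p = 0.558). In bulk RNA, fewer or more cells of a kind and less or more RNA per cell cannot be told apart.

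Over all genes, 7532 of 14371 changed, which is 52.4%: 4148 were higher in Lmo2tg (28.9%) and 3384 lower (23.5%). A gene is called changed at a Benjamini-Hochberg adjusted p below 0.05 in edgeR's quasi-likelihood test. The rises were the larger changes, with 2359 rises over 2-fold against 667 falls, 1344 against 288 over 4-fold, and 502 against 89 over 16-fold. The median log2 fold change over all genes was 0.07. The groups did not overlap for 2264 of the rises and 1942 of the falls, and for 4308 of all 14371 genes. A fit of the 9 libraries and no others takes its spread from them alone. It called 2919 higher and 2028 lower genes, and 4932 of these 4947 were also called in the same direction with all libraries.

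Among the genes of the Lmo2-Ldb1 complex, the bHLH partner Lyl1 showed the largest change after Lmo2 itself. Lyl1 was at 0.0586, 0.429, 0.317 and 0.406 CPM in the wild type against 33.2, 11.2, 61.9, 16.5 and 72.6 CPM in Lmo2tg (log2FC 6.99, SE 0.77, adjusted p = 1.21e-07). All 5 Lmo2tg libraries were far above wild type, replicates 3 and 5 highest and replicate 2 lowest. Tal1, the other bHLH partner of Lmo2 in blood progenitors, stayed below 1 CPM in every library, from 0 to 0.239 CPM in Lmo2tg, and was not called (adjusted p = 0.114), though it was without Lmo2tg replicate 1 (0.0364). Ldb1 itself was at 359, 335, 379.5 and 359 CPM in the wild type against 381, 298, 246, 371 and 428 CPM in Lmo2tg (log2FC -0.05, adjusted p = 0.91), with the wild-type values inside the Lmo2tg range. Of the GATA factors, Gata3, which T cells need, was at 133, 145, 134 and 118 CPM in the wild type against 156, 147, 202, 157 and 253 CPM in Lmo2tg (log2FC 0.47, adjusted p = 0.00783, and 0.0528 with the compared groups only). Gata1, the erythroid factor, was at 0.835, 1.57, 1.28 and 0.723 CPM in the wild type against 4.67, 1.57, 5.52, 2.85 and 10.3 CPM in Lmo2tg (log2FC 2.17, SE 0.39, adjusted p = 8.82e-05), with replicate 2 level with the highest wild-type library. The order of the Lmo2tg libraries was close to that for Lyl1, replicates 5 and 3 highest and 2 lowest. Gata2 was below 1 CPM in all 9 libraries and was not called (adjusted p = 0.141).

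The 250 bases before the Lyl1 start are shown because Lyl1 is the bHLH partner that rose. The sequence is from RefSeq on GRCm38.p6, plus strand, chr8:84701207-84701456, with matches of the E-box letters CANNTG in capitals. It holds 1 E-box, CACCTG, 235 bases before the start, and no GATA on either strand.
Lyl1: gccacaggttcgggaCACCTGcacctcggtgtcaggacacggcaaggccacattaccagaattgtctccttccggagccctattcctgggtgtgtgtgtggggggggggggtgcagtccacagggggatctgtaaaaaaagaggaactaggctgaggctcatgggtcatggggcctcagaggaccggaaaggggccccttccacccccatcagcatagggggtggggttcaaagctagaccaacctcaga

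Of the 17 tested members of the complex list, 8 rose and 2 fell (median log2 fold change 0.35). Rises passed in 47.1% of them against 28.9% of all genes, and 4 passed with the compared groups only or without wild-type replicate 1, and 5 without Lmo2tg replicate 3. The E protein gene Tcf12 was at 425, 466, 405 and 433 CPM in the wild type against 474, 540.2, 608, 512 and 491 CPM in Lmo2tg (log2FC 0.28, SE 0.10, adjusted p = 0.0182), a small rise whose call ended in 5 settings, among them without Lmo2tg replicate 3 (adjusted p = 0.0615) and without wild-type replicate 1 (0.0554) or 3 (0.0737). Ssbp4, which encodes a single-stranded DNA-binding protein that stabilises Ldb1, fell: it ran from 136 to 182 CPM in wild type and from 40.8 to 160.0 CPM in Lmo2tg (log2FC -0.83, adjusted p = 0.0051, and 0.0572 with the compared groups only), with replicate 4 inside the wild-type range. The other fall was Tcf4, given with the E proteins below.

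Regulators of blood stem and progenitor cells moved both ways. Hhex, a homeobox repressor of early blood progenitors and an established Lmo2 target in T-cell leukemia, was at 0, 0.0858, 0.254 and 0 CPM in the wild type against 41.5, 18.8, 153, 27.9 and 87 CPM in Lmo2tg (log2FC 9.65, SE 1.04, adjusted p = 9.35e-08). Wild type held at most 0.254 CPM, and every Lmo2tg library was above 18 CPM, replicate 3 highest and replicate 2 lowest; without wild-type replicate 3 the log2 fold change was 11.08. Erg, an Ets factor that progenitors use, was at 0.234, 0.458, 0.666 and 0.38 CPM in the wild type against 19.9, 6.82, 94.2, 12.9 and 44.4 CPM in Lmo2tg (log2FC 6.36, SE 0.90, adjusted p = 4.76e-06, and 5.59 on the log2 scale without replicate 3). Nfe2, a bZIP factor of megakaryocyte and erythroid cells, was at 0.938, 1.29, 1.19 and 0.647 CPM in the wild type against 51.4, 17.2, 183, 36.7 and 151 CPM in Lmo2tg (log2FC 6.44, SE 0.88, adjusted p = 2.78e-06). The order of the Lmo2tg libraries was the same for Hhex, Erg and Nfe2: replicate 3 highest, then 5, 1, 4 and 2. Kit, the stem cell factor receptor, was at 16.7, 26.4, 21.9 and 21.2 CPM in the wild type against 88.5, 56.3, 220.2, 62 and 139 CPM in Lmo2tg (log2FC 2.39, SE 0.33, adjusted p = 2.82e-06), and its Lmo2tg libraries stood in the same order again.

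**Figure D2:**
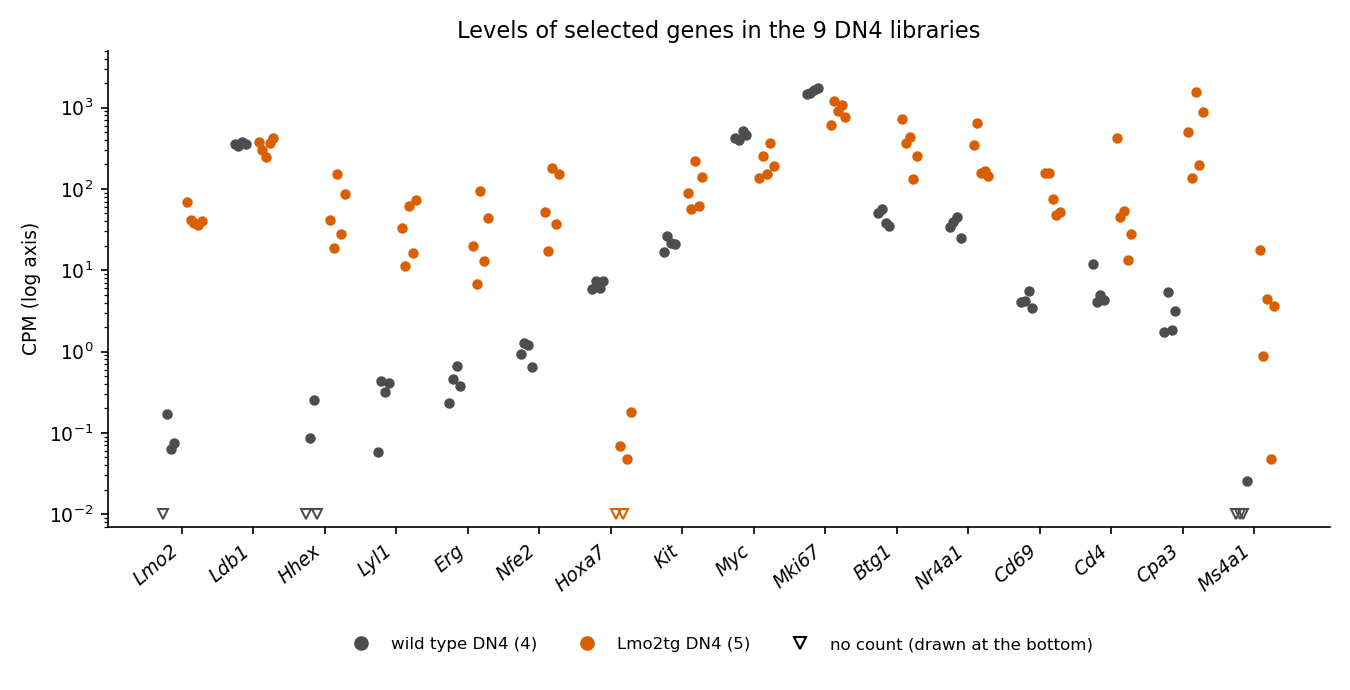
CPM on a log scale for 16 genes, each point a DN4 library (4 wild type, 5 Lmo2tg), with libraries that held no count drawn as open triangles at the bottom. Hhex, Lyl1, Erg, Nfe2 and Cpa3 are above wild type in all 5 Lmo2tg libraries, Myc and Mki67 below, and Ldb1 overlaps.

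The Hhex promoter is shown because this gene had the largest rise among genes with a count in wild type in this list. The 250 bases before its start, on the plus strand of GRCm38.p6 from RefSeq at chr19:37434591-37434840, hold no CANNTG match and 1 GATA match on the minus strand (TATC, in capitals), 53 bases before the start.
Hhex: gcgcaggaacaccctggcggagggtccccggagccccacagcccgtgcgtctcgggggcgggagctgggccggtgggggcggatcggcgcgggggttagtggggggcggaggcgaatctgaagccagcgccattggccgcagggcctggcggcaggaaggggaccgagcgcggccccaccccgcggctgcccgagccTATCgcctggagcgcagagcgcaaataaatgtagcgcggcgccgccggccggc
Over all 27025 RefSeq promoters of the same length, 66% hold a CANNTG match and 54.1% a GATA match on either strand. The E-box followed by GATA at a gap of 9 bases, the spacing known from Lmo2 complexes in erythroid cells, was found in 0.514% of them and in neither the Lyl1 nor the Hhex window.

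Hoxa3, Hoxa5 and Hoxa7 of the Hoxa cluster fell, while Hoxa9 was not called with all libraries. Hoxa7 was at 5.84, 7.35, 6.06 and 7.34 CPM in the wild type against 0, 0.0696, 0, 0.0479 and 0.182 CPM in Lmo2tg (log2FC -6.94, SE 0.63, adjusted p = 5.67e-09, and -7.73 on the log2 scale without Lmo2tg replicate 5). Hoxa5 was at 2.31, 1.82, 1.92 and 2.99 CPM in the wild type against 0, 0.104, 0.0445, 0.0239 and 0.0607 CPM in Lmo2tg, below wild type in every Lmo2tg library (log2FC -5.55, adjusted p = 4.43e-08, and -6.21 without Lmo2tg replicate 2). These 2 homeobox genes were thus near 0 in Lmo2tg, far below wild type. Hoxa3 was at 0.674, 0.958, 1.05 and 0.85 CPM in wild type and had no count in any Lmo2tg library (adjusted p = 1.89e-09). Hoxa9 was low in both genotypes, at 0.176, 0.0572, 0.0317 and 0.254 CPM in the wild type against 0.129, 0.0348, 0, 0 and 0 CPM in Lmo2tg (log2FC -1.70, adjusted p = 0.149), and its fall was called without Lmo2tg replicate 1 (-3.35, 0.0359). Mira, which the Hoxa cluster transcribes as a noncoding RNA, was at 6.99, 9.38, 6.04 and 7.56 CPM in the wild type against 0.0965, 0, 0, 0 and 0 CPM in Lmo2tg, with counts in 1 Lmo2tg library (log2FC -8.15, adjusted p = 1.81e-09, and -11.78 without that library, replicate 1). Exons of Hoxa7 overlap an antisense gene over 20.4% of their length, and the labels give no strand setting for the counting, so reads of the pair cannot be told apart there. Of the 24 tested stem and progenitor regulators, 8 rose and 6 fell (33.3% and 25.0%, near the 28.9% and 23.5% of all genes), with a median log2 fold change of 1.15. Bmi1, a Polycomb gene that stem cells need, was at 67.8, 74.2, 63.1 and 71.3 CPM in the wild type against 111, 142, 123, 74.7 and 79.5 CPM in Lmo2tg (log2FC 0.62, adjusted p = 0.00369). Prdm16 ran from 0.257 to 46.8 CPM in Lmo2tg and from 7.03 to 12.6 CPM in wild type, with replicate 1 below and replicates 2, 3 and 4 above every wild-type library, and was not called (adjusted p = 0.366). Hoxa10 and Nkx2-3 had no count in any of the 9 libraries.

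The 8 largest rises among genes of at least 5 CPM in Lmo2tg without overlap all started from no count in wild type, and 7 of them are given here. They were ranked by fitted log2 fold change, which for a gene with no count depends on the prior count, so the rule favours such genes. Their adjusted p-values come from the values that selected them and are no separate support. Ryr2, a calcium release channel of the endoplasmic reticulum, was at 34, 159, 66.5, 8.16 and 61.4 CPM in Lmo2tg, a rise of at least 6150-fold when wild type is given 3 counts in all (adjusted p = 5.02e-07). Pof1b, an actin-binding protein gene, was at 1.17, 5.05, 170.5, 0.335 and 74.3 CPM, a rise of at least 4690-fold (adjusted p = 8.7e-05), with replicate 3 holding most of the signal. Slc22a4, an organic cation transporter gene, was at 3.96, 4.37, 15.4, 3.13 and 12.7 CPM, a rise of at least 738-fold (adjusted p = 2.38e-08), with replicates 3 and 5 highest. The library highest in each of these transcripts thus differed, replicate 2 for Ryr2 and replicate 3 for the other 2. Esrp1, an epithelial splicing regulator gene, was at 5.23, 10.3, 4.9, 18.1 and 2.31 CPM, a rise of at least 764-fold (adjusted p = 1.06e-07). Thsd4 was at 0.322, 3.62, 0.178, 0.287 and 65.5 CPM, a rise of at least 1310-fold (adjusted p = 0.00328), almost all of it in replicate 5, without which the adjusted p was 0.0118. Faxc was at 1.45, 14.7, 7.21, 8.5 and 11.9 CPM, a rise of at least 817-fold (adjusted p = 2.14e-05).

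Ubqlnl, a ubiquilin-like gene on the minus strand of mm10 chromosome 7 (104148259 to 104150556), was at 10.1, 2.07, 38.2, 8.04 and 14.4 CPM in Lmo2tg, a rise of at least 1360-fold (adjusted p = 3.39e-06). It had no count in wild type, and among the Lmo2tg libraries replicate 3 was highest and replicate 2 lowest.

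The largest falls, besides Hoxa7 and Mira, included Msantd3, Arhgap32, Pla2g4a, Sh2b2 and Gja1. Like the rises, they were chosen from called genes without overlap, so their adjusted p-values and lack of overlap are no separate support. Msantd3 was at 5.57, 6.19, 6.91 and 5.35 CPM in wild type and had counts in replicate 2 alone among the Lmo2tg libraries (0, 0.0348, 0, 0 and 0 CPM, adjusted p = 1.4e-11, with a log2 fold change of -9.18 that became -11.46 without replicate 2). Arhgap32, a GTPase-activating protein gene, was at 16, 16.4, 17.1 and 15.9 CPM in the wild type against 0.0965, 0.0696, 0.223, 0.0479 and 0 CPM in Lmo2tg (log2FC -7.45, adjusted p = 1.46e-09). Sh2b2, an adaptor of receptor kinases, was at 8.04, 7.56, 10.3 and 9.05 CPM in the wild type against 0.225, 0.418, 0, 0.526 and 0.243 CPM in Lmo2tg (log2FC -4.94, adjusted p = 5.02e-07). Gja1, the gap junction protein connexin 43, was at 6.8, 9.84, 8.69 and 10.6 CPM in the wild type against 0.322, 0.418, 0.134, 0.383 and 0.547 CPM in Lmo2tg (log2FC -4.64, adjusted p = 4.21e-09). Pla2g4a, a phospholipase gene, fell: it ran from 11.4 to 18.8 CPM in wild type and from 0 to 0.445 CPM in Lmo2tg (log2FC -6.33, adjusted p = 3.94e-09).

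Promoters of the gene with the largest bounded rise, Ryr2, and of the gene with the largest fall, Msantd3, are set side by side, 250 bases before the start, from RefSeq on GRCm38.p6, with CANNTG and GATA matches on either strand in capitals. Ryr2 is read on the minus strand at chr13:12106946-12107195, and Msantd3 on the plus strand at chr4:48539696-48539945, for the first of 3 starts listed.
Ryr2: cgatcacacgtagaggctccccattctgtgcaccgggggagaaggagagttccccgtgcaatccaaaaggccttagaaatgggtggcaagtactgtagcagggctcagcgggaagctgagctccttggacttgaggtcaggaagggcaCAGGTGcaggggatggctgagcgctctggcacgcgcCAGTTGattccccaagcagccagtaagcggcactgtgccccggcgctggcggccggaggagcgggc
Msantd3: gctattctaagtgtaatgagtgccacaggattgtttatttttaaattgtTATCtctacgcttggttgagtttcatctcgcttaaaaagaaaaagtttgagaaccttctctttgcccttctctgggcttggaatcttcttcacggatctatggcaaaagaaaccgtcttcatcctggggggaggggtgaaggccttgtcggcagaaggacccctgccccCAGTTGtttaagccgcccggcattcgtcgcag
The Ryr2 window holds CAGGTG 102 bases and CAGTTG 66 bases before the start and no GATA. The Msantd3 window holds CAGTTG 32 bases and GATA 201 bases before the start. CAGGTG, the E-box that E proteins prefer, is in 17.1% of all 27025 promoters. A match of letters is a description and not a binding site.

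Transcription factors of the T lineage rose in most cases, with 12 rises and no fall among 20 tested (median log2 fold change 0.61, 60% higher and 0% lower against 28.9% and 23.5% of all genes). Ets1 was at 787, 806, 746 and 759 CPM in the wild type against 1763, 1346, 1317, 920.0 and 1141 CPM in Lmo2tg (log2FC 0.74, adjusted p = 6.05e-05). Only replicate 4 came near the wild-type values. Ikzf2, which encodes Helios, was at 113, 137, 81.9 and 106 CPM in the wild type against 564, 485, 825, 158 and 368 CPM in Lmo2tg (log2FC 2.13, SE 0.31, adjusted p = 6.06e-06), with no overlap and replicate 4 nearest to wild type. Myb was at 424, 488, 468 and 466 CPM in the wild type against 1027, 867, 1520, 662 and 1225 CPM in Lmo2tg (log2FC 1.20, adjusted p = 2.73e-06), with every Lmo2tg library above wild type. Runx3, which represses Cd4, ran from 25.9 to 38.9 CPM in wild type and from 45.9 to 96.3 CPM in Lmo2tg (log2FC 1.25, adjusted p = 1.19e-05). Bcl6, a repressor that double-positive thymocytes express, was at 10.2, 7.98, 6.82 and 9.23 CPM in the wild type against 81.2, 58.3, 35.8, 13.1 and 35.5 CPM in Lmo2tg (log2FC 2.39, SE 0.41, adjusted p = 4.7e-05). Zbtb7b, which encodes ThPOK of the helper lineage, was at 0.498, 0.286, 0.159 and 0.279 CPM in the wild type against 57.8, 2.18, 1.6, 0.287 and 2.92 CPM in Lmo2tg (log2FC 5.40, adjusted p = 0.00127). That rise lay mostly in replicate 1, replicate 4 was inside the wild-type range, and without replicate 1 the log2 fold change was 2.5. The commitment factors Bcl11b and Tcf7 were not called. Bcl11b was at 447, 488, 418 and 431 CPM in the wild type against 390.0, 467, 609, 494 and 569 CPM in Lmo2tg (log2FC 0.18, adjusted p = 0.162, and 0.0373 without Lmo2tg replicate 1). Tcf7 was at 3195, 3136, 3437 and 3361 CPM in the wild type against 2758, 3121, 3116, 3345 and 2948 CPM in Lmo2tg (log2FC -0.10, adjusted p = 0.282).

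E proteins are the bHLH partners whose activity Lmo2 complexes and Id proteins alter. Tcf3, which encodes E2A, was at 463, 385, 458 and 352 CPM in the wild type against 226, 306, 196, 472 and 364 CPM in Lmo2tg (log2FC -0.41, adjusted p = 0.0727), and without Lmo2tg replicate 4 its fall was called (0.0048). Tcf4 fell, at 46.5, 50.9, 38.8 and 42.1 CPM in the wild type against 21, 24.4, 42.8, 29.1 and 21.6 CPM in Lmo2tg (log2FC -0.68, adjusted p = 0.00227), with replicate 3 inside the wild-type range. Of the Id inhibitors, Id2 was at 3.62, 4.05, 3.54 and 3.61 CPM in the wild type against 79.7, 26.5, 16.4, 8.14 and 14.5 CPM in Lmo2tg (log2FC 2.97, SE 0.42, adjusted p = 5.19e-06, and 2.15 on the log2 scale without replicate 1). Every Lmo2tg library was above wild type for Id2. Id1 was at 0.82, 0.658, 1.44 and 0.507 CPM in the wild type against 2.2, 4.86, 1.43, 6.15 and 2.79 CPM in Lmo2tg (log2FC 2.03, adjusted p = 0.000277). Id3, the inhibitor that pre-TCR signals induce, was at 76.5, 69.1, 79.8 and 73.9 CPM in the wild type against 122, 81.8, 44.5, 64.5 and 70.2 CPM in Lmo2tg (log2FC 0.03, adjusted p = 0.914). Replicate 1 was thus the highest of its group for Id2 and Id3, and replicate 4 for Id1. Over the 6 tested E and Id genes, 3 rose and 1 fell (median log2 fold change 0.16, 50% higher and 16.7% lower against 28.9% and 23.5% of all genes).

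Genes of pre-TCR and TCR signalling rose in 19 of 28 tested members and fell in 3 (median log2 fold change 0.72, 67.9% higher and 10.7% lower against 28.9% and 23.5% of all genes). The 3 that fell were Ptcra, Syk and Thy1. Ptcra, the invariant pre-TCR chain, was at 64.9, 46.7, 70.4 and 61.5 CPM in the wild type against 12.5, 34.9, 13.8, 38.4 and 30.1 CPM in Lmo2tg (log2FC -1.23, SE 0.28, adjusted p = 0.000807). Syk, the kinase that pre-TCR signals use beside Zap70, was at 63.6, 58.1, 60.3 and 47.2 CPM in the wild type against 34.9, 26.7, 41.2, 38.8 and 43.8 CPM in Lmo2tg (log2FC -0.63, adjusted p = 9.7e-05). Both were below wild type in every Lmo2tg library. Thy1, a surface protein of all thymocytes, was at 2118, 1873, 2282 and 1965 CPM in the wild type against 901, 1069, 678, 1437 and 1121 CPM in Lmo2tg, with no overlap. Among the rises, Cd2, an adhesion receptor, was at 35.2, 18.6, 19.8 and 14 CPM in the wild type against 349, 237, 107, 103 and 121 CPM in Lmo2tg (log2FC 3.06, SE 0.43, adjusted p = 4.74e-06). Cd5, a brake on TCR signals, was at 43.8, 37.6, 33.6 and 26.3 CPM in the wild type against 405, 274, 137, 73.3 and 147 CPM in Lmo2tg, every Lmo2tg library above wild type. Fyn, a Src family kinase, was at 67, 77.6, 70.7 and 68.8 CPM in the wild type against 279.5, 192, 194, 111 and 193 CPM in Lmo2tg (log2FC 1.45, adjusted p = 1.4e-07). Its relative Lck was at 1238, 1086, 1249 and 1105 CPM in the wild type against 1194, 1165, 849.9, 1211 and 1157 CPM in Lmo2tg and was not called (log2FC -0.07, adjusted p = 0.549). Most of these rises were largest in replicate 1 and smallest in replicate 4. Rasgrp1, which couples the TCR to Ras, was at 212, 265, 188 and 223 CPM in the wild type against 817, 614, 845, 339 and 604 CPM in Lmo2tg (log2FC 1.53, adjusted p = 5.6e-07). Ptprc, the phosphatase CD45, was at 728, 848, 624 and 670.5 CPM in the wild type against 2259, 1553, 1485, 701 and 1013 CPM in Lmo2tg (log2FC 0.97, adjusted p = 0.000762), with replicate 4 inside the wild-type range.

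Of 12 V(D)J recombination genes tested, 2 rose and 4 fell (median log2 fold change 0.14, 16.7% higher and 33.3% lower against 28.9% and 23.5% of all genes), and 1 rise was counted in several settings, among them the compared groups only and without Lmo2tg replicate 1 or 3 or wild-type replicate 1 or 3. The rises included Lig4, the ligase of the broken ends, at 72.1, 84.6, 67.7 and 77.5 CPM in the wild type against 113, 90.0, 137, 82.3 and 108 CPM in Lmo2tg (log2FC 0.49, adjusted p = 0.00841), and the falls included Rag2, Dntt and Xrcc5. Rag2, a subunit of the recombinase, was at 36.4, 40.8, 41.8 and 54.3 CPM in the wild type against 41.2, 18.9, 18.4, 9.17 and 14.1 CPM in Lmo2tg (log2FC -1.09, adjusted p = 0.0105), with replicate 1 at the wild-type level and the other 4 below it. Rag1 was at 542, 556, 555 and 619.5 CPM in the wild type against 1129, 502, 497, 341 and 346 CPM in Lmo2tg (log2FC -0.01, adjusted p = 0.98), where replicate 1 stood above and replicates 4 and 5 below wild type. Replicate 1 was thus the highest of its group for both recombinase genes. Dntt, the polymerase that adds bases at the joins, fell in every Lmo2tg library, at 1580, 1593, 1605 and 1612 CPM in the wild type against 1030, 1002, 1328, 1190 and 1184 CPM in Lmo2tg (log2FC -0.48, SE 0.12, adjusted p = 0.00161).

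Notch receptors and their targets diverged. Notch1 was at 933, 950.4, 1020 and 944 CPM in the wild type against 563, 1010, 619, 1297 and 1052 CPM in Lmo2tg (log2FC -0.08, adjusted p = 0.762), and wild type lay inside the Lmo2tg range. Dtx1, a Notch target that encodes Deltex1, was at 18.6, 15.7, 28.3 and 18.3 CPM in the wild type against 129.8, 75.2, 116, 51.4 and 70.2 CPM in Lmo2tg (log2FC 2.13, SE 0.35, adjusted p = 2.73e-05). Heyl, a Notch target repressor, was at 0.733, 0.715, 1.17 and 0.71 CPM in the wild type against 8.67, 4.42, 5.3, 5.86 and 3.77 CPM in Lmo2tg. Trib2, a pseudokinase gene and Notch target, was at 32.7, 35.6, 29.8 and 34.1 CPM in the wild type against 208, 116, 196, 74.4 and 129 CPM in Lmo2tg. None of these 3 targets overlapped wild type. Nrarp, a feedback inhibitor of Notch, was at 10.3, 9.64, 10.7 and 8.29 CPM in the wild type against 3.31, 12.5, 5.01, 12.4 and 4.8 CPM in Lmo2tg (log2FC -0.36, adjusted p = 0.366). Ptcra and Myc, which are Notch targets too, fell. In all, 6 of 12 rose and 2 fell (median log2 fold change 0.57), against 28.9% and 23.5% of all genes.

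Cytokine receptor genes rose in 17 of 28 and fell in 2 (median log2 fold change 0.84, 60.7% higher and 7.14% lower against 28.9% and 23.5% of all genes). Il7r, the IL-7 receptor chain that early thymocytes need, was at 32, 57.5, 42.1 and 43.4 CPM in the wild type against 196, 48.3, 175, 56.8 and 63.2 CPM in Lmo2tg (log2FC 1.30, adjusted p = 0.00457), with replicates 1 and 3 high and replicates 2, 4 and 5 near the wild-type values. Il2rg, the chain that receptors for IL-2, IL-4 and IL-7 share, was at 200, 211, 199.7 and 196 CPM in the wild type against 497, 323, 420.1, 205 and 355 CPM in Lmo2tg (log2FC 0.84, SE 0.16, adjusted p = 0.00013), with 30.5% of its exon length overlapped by another gene on the same strand. Replicates 1 and 3 were thus high for both chains, and replicate 4 was inside the wild-type range. Il4ra was at 4.92, 4.17, 2.84 and 3.99 CPM in the wild type against 95.2, 51.6, 14.9, 7.61 and 20.7 CPM in Lmo2tg (log2FC 3.26, adjusted p = 5.21e-05, and 2.58 on the log2 scale without replicate 1). Il6ra was at 0.234, 0.572, 0.254 and 0.507 CPM in the wild type against 25.6, 1.9, 0.846, 0.431 and 3.43 CPM in Lmo2tg (log2FC 4.03, adjusted p = 0.000868, and 2.06 without replicate 1), nearly all of it in that library. Replicate 4 was the nearest to wild type for both. Tgfbr2, a TGF-beta receptor, was at 20.8, 28, 18.7 and 21.4 CPM in the wild type against 132, 70.2, 90.2, 28.6 and 68.2 CPM in Lmo2tg, above wild type in every Lmo2tg library. Csf2ra, which encodes a GM-CSF receptor chain, fell, at 14.2, 15.4, 13.4 and 13.2 CPM in the wild type against 1.64, 0.505, 1.43, 1.44 and 3.89 CPM in Lmo2tg (log2FC -3.01, SE 0.48, adjusted p = 1.99e-05), and its groups were far apart. Il15ra was the other gene that fell (adjusted p = 0.00694, and 0.0986 with the compared groups only).

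Downstream of these receptors, 12 of 16 Jak-Stat genes rose and none fell (median log2 fold change 0.98, 75% higher and 0% lower against 28.9% and 23.5% of all genes). Stat5b, which relays IL-7 and IL-2 signals, was at 293, 270.4, 273 and 257 CPM in the wild type against 509, 516, 444, 526 and 502 CPM in Lmo2tg (log2FC 0.87, SE 0.09, adjusted p = 6.12e-08). Stat5a was at 184, 186, 193 and 185 CPM in the wild type against 366, 379.5, 415, 539.7 and 501 CPM in Lmo2tg (log2FC 1.24, adjusted p = 1.52e-06). Both were above wild type in all 5 Lmo2tg libraries, and replicate 4 was the highest of its group for both. Jak2 was at 57.6, 58.9, 47.2 and 49.2 CPM in the wild type against 198, 146, 178, 66.7 and 107 CPM in Lmo2tg (log2FC 1.39, adjusted p = 9.85e-06). Of the genes that Stat5 is known to induce, Socs2 was at 0.0293, 0.114, 0.412 and 0.152 CPM in the wild type against 1.29, 2.61, 2, 0.766 and 2.06 CPM in Lmo2tg (log2FC 3.31, adjusted p = 6.27e-05, and 4.08 on the log2 scale without wild-type replicate 3). Pim1, a survival kinase that is likewise induced, was at 55.1, 46.4, 47.3 and 38.2 CPM in the wild type against 82.2, 144, 88.2, 114 and 112 CPM in Lmo2tg (log2FC 1.21, adjusted p = 7.29e-07).

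Cell division genes fell, most in Lmo2tg replicates 1 and 3 and least in replicate 4. Of 25 tested genes of DNA replication and nucleotide synthesis, 23 fell and none rose (median log2 fold change -0.82), against 23.5% of all genes. Their summed level was 11440, 10290, 11450 and 10620 CPM in the wild type against 3455, 8214, 5158, 10150 and 5683 CPM in Lmo2tg, so replicate 4 came close to wild type. Mcm5, a subunit of the replicative helicase, was at 899, 744, 920.1 and 835 CPM in the wild type against 206, 555, 284, 797 and 377 CPM in Lmo2tg (log2FC -0.94, adjusted p = 0.00628). Replicate 4 was inside the wild-type range of Mcm5. Tk1, a thymidine kinase, was at 242, 202, 242 and 199 CPM in the wild type against 37.8, 97.8, 47.1, 182 and 86.2 CPM in Lmo2tg (log2FC -1.30, SE 0.32, adjusted p = 0.00168). Rrm2, a ribonucleotide reductase subunit, was at 743, 697, 703 and 684 CPM in the wild type against 227, 455, 317, 548 and 386 CPM in Lmo2tg (log2FC -0.87, adjusted p = 0.00125), below wild type in all 5. Mcm6 was another helicase subunit, at 1242, 1127, 1197 and 1081 CPM in the wild type against 435, 1033, 722, 1078 and 622 CPM in Lmo2tg (log2FC -0.58, adjusted p = 0.0135, and 0.0775 with the compared groups only). Pcna, the polymerase clamp, and Pola1 were not called (adjusted p = 0.0676 and 0.105), though both were in some settings, among them without Lmo2tg replicate 2 (0.0272 and 0.0269) and Pcna also without replicate 4 (0.0158).

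Mitosis genes gave 21 falls among 26 and no rise (median log2 fold change -0.68, 80.8% lower against 23.5% of all genes), and 14 falls without Lmo2tg replicate 1. The sum of the mitosis and chromosome segregation list was 7569, 7164, 8157 and 7881 CPM in the wild type against 2693, 5568, 4209, 6759 and 4626 CPM in Lmo2tg. Mki67, the proliferation antigen Ki-67, was at 1460, 1492, 1654 and 1727 CPM in the wild type against 609, 1206, 914, 1064 and 760.4 CPM in Lmo2tg (log2FC -0.80, SE 0.21, adjusted p = 0.00281). Plk1, a mitotic kinase, was at 207, 176, 257 and 199 CPM in the wild type against 45.5, 102, 47, 198 and 123 CPM in Lmo2tg (log2FC -1.03, adjusted p = 0.00873, and 0.056 with the compared groups only), and replicate 4 was inside the wild-type range. Birc5, which encodes survivin, was at 222, 184, 228 and 209.5 CPM in the wild type against 63.6, 124, 85.1, 177 and 113 CPM in Lmo2tg (log2FC -0.91, adjusted p = 0.00174), below wild type in all 5 libraries. Ccnb1, a mitotic cyclin, was at 160.1, 155, 173 and 169.8 CPM in the wild type against 47.1, 111, 74.9, 185 and 121 CPM in Lmo2tg and was not called (log2FC -0.61, adjusted p = 0.0661), though it was without replicate 4 (0.00546).

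Of the cyclins, kinases and E2f factors that drive entry into S phase, 12 of 18 fell and 3 rose (median log2 fold change -0.68, 66.7% lower against 23.5% of all genes). E2f7, an E2f repressor, was at 12.7, 11.2, 15.4 and 16.5 CPM in the wild type against 4.84, 5.67, 4.07, 6.8 and 7.29 CPM in Lmo2tg (log2FC -1.28, SE 0.21, adjusted p = 3.11e-05). E2f1, an activator, was at 177, 125, 142 and 124 CPM in the wild type against 28.1, 71.5, 40.2, 122 and 72.4 CPM in Lmo2tg (log2FC -1.09, adjusted p = 0.00324). Cdk4, the kinase of cyclin D, was at 698, 690.5, 765 and 702 CPM in the wild type against 272, 517, 295, 666 and 435 CPM in Lmo2tg (log2FC -0.71, adjusted p = 0.0024), with 19.7% of its exon length overlapped on the opposite strand. For these 3 genes replicates 1 and 3 were lowest and replicate 4 was nearest to wild type or close to it. Ccnd3, the cyclin that pre-TCR expansion needs, was at 535, 419, 534 and 466 CPM in the wild type against 462, 519, 304, 713 and 566 CPM in Lmo2tg (log2FC 0.07, adjusted p = 0.774). Ccnd2 was at 83.1, 109, 91.5 and 99 CPM in the wild type against 233, 95.1, 96.5, 36.9 and 70.4 CPM in Lmo2tg (log2FC 0.15, adjusted p = 0.687). Both D cyclins overlapped wild type. Rbl2, the pocket protein p130 of resting cells, rose, at 55.6, 56.1, 44.8 and 51.5 CPM in the wild type against 153, 84.2, 127, 66.8 and 100.3 CPM in Lmo2tg (log2FC 1.03, SE 0.17, adjusted p = 2.64e-05), with 21% of its exon length overlapped by another gene. The other rises were in Ccnd1 and Rb1.

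Inhibitors of division went the other way, with 13 rises and 1 fall among 16 (median log2 fold change 1.31, 81.2% higher and 6.25% lower against 28.9% and 23.5% of all genes). Btg1, an antiproliferative gene of resting lymphocytes, was at 51.1, 56.7, 38.2 and 34.6 CPM in the wild type against 723, 363, 431, 131 and 254 CPM in Lmo2tg (log2FC 3.07, SE 0.34, adjusted p = 1.16e-07). Cdkn1b, which encodes p27, was at 66.2, 57.8, 48.8 and 44.6 CPM in the wild type against 158, 135, 175, 90.2 and 122 CPM in Lmo2tg, replicate 4 lowest of the Lmo2tg libraries and still above wild type. Cdkn2a, the locus of p16 and p19Arf, was at 0.0293, 0.0286, 0.0951 and 0.0507 CPM in the wild type against 2.25, 2.92, 6.77, 12.7 and 7.2 CPM in Lmo2tg (log2FC 6.92, SE 1.09, adjusted p = 1.82e-05), with replicate 4 highest and replicate 1 lowest. Its neighbour Cdkn2b had no count in wild type and 0.209 to 0.622 CPM in Lmo2tg (adjusted p = 0.000102). Cdkn1a, which encodes p21, was the inhibitor that fell, at 3.08, 3.35, 9.2 and 6.26 CPM in the wild type against 1.09, 2.05, 1.16, 2.54 and 1.64 CPM in Lmo2tg (log2FC -1.69, SE 0.40, adjusted p = 0.00117), and limma gave it an adjusted p of 0.0689.

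**Figure D3:**
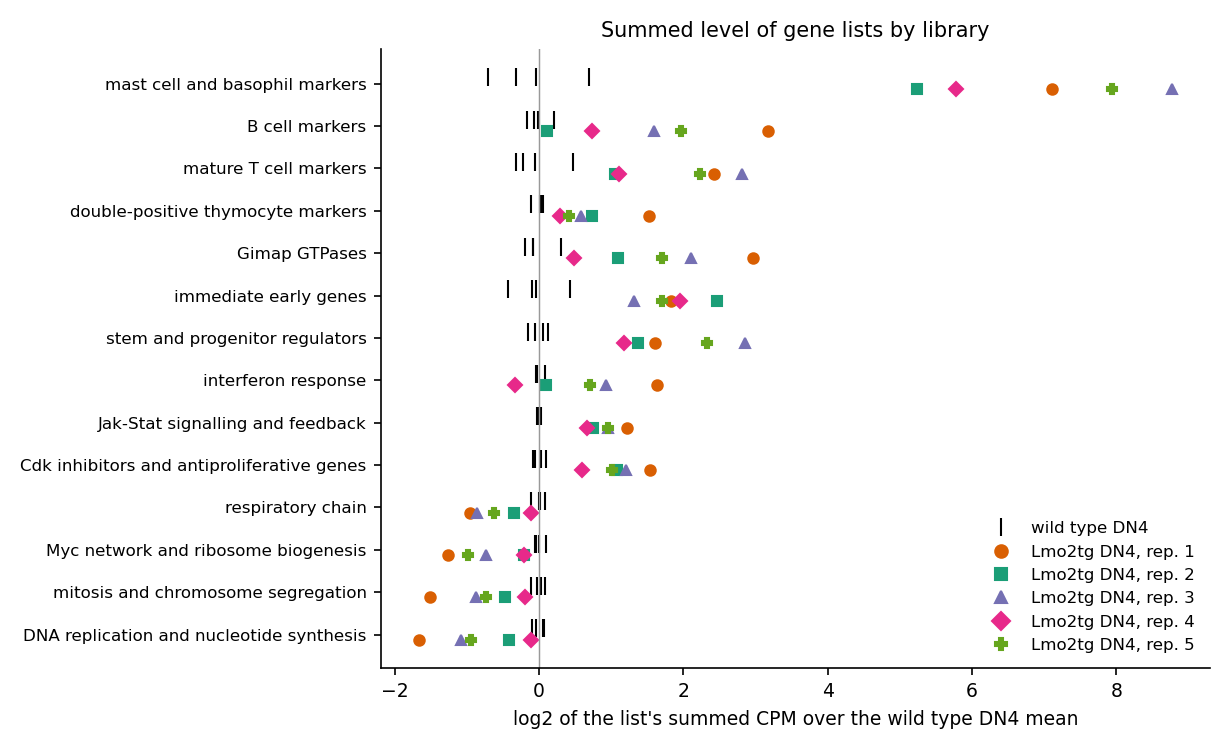
Summed CPM of 14 gene lists in each DN4 library, as log2 of the sum over the wild-type mean, with wild-type and Lmo2tg libraries as separate points. Replication, mitosis and ribosome biogenesis sums lie below 0 in the Lmo2tg libraries, replicate 4 nearest to 0 or level with replicate 2, and mature T, double-positive and mast cell marker sums lie above.

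Myc, the growth regulator, was at 427, 402, 512 and 466 CPM in the wild type against 136, 252, 151, 367 and 192 CPM in Lmo2tg, every Lmo2tg library below wild type and replicate 4 nearest to it. Its relative Mycn rose, at 2.37, 1.83, 1.6 and 1.33 CPM in the wild type against 4.13, 6.74, 8.77, 7.39 and 8.11 CPM in Lmo2tg (log2FC 1.98, SE 0.22, adjusted p = 2.07e-07). Of 26 genes of the Myc network and ribosome biogenesis, 16 fell and 4 rose (median log2 fold change -0.53, 61.5% lower against 23.5% of all genes). Ncl, which encodes nucleolin, was at 3047, 2868, 3050 and 2518 CPM in the wild type against 1023, 2175, 1854, 2151 and 1214 CPM in Lmo2tg (log2FC -0.77, adjusted p = 0.00241). Nolc1, a nucleolar assembly factor, was at 606, 539, 674 and 552 CPM in the wild type against 194, 419, 242, 476 and 251 CPM in Lmo2tg (log2FC -0.90, adjusted p = 0.000609). Both fell in every Lmo2tg library. Mxd3, a Max partner of dividing cells, fell, at 86.3, 66.4, 88.1 and 69.1 CPM in the wild type against 17.7, 30.4, 16.3, 68.7 and 44 CPM in Lmo2tg (log2FC -1.13, adjusted p = 0.00451). Mxd1, a Max partner of resting cells, rose, at 13.6, 16.6, 11.3 and 14.6 CPM in the wild type against 37.5, 32.6, 24.2, 26.6 and 22.4 CPM in Lmo2tg (log2FC 1.03, adjusted p = 0.00016).

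Metabolic genes fell in several lists. The respiratory chain gave 21 falls and no rise among 24 (median log2 fold change -0.50, 87.5% lower against 23.5% of all genes). Atp5b, a subunit of the ATP synthase, was at 2437, 2188, 2587 and 2401 CPM in the wild type against 961, 1788, 950.2, 2136 and 1332 CPM in Lmo2tg (log2FC -0.75, SE 0.18, adjusted p = 0.00146). Atp5o, another subunit, was at 294, 267, 286 and 282 CPM in the wild type against 130.2, 182, 121, 216 and 149 CPM in Lmo2tg (log2FC -0.82, adjusted p = 2.21e-05), with 54.2% of its exon length overlapped by another gene on the same strand. Sdha, of complex II, was at 383, 344, 399 and 389 CPM in the wild type against 210.4, 272, 236, 316 and 246 CPM in Lmo2tg (log2FC -0.57, adjusted p = 9.39e-06). All 3 were below wild type in every Lmo2tg library. Serine and one-carbon enzymes gave 11 falls and no rise among 16 (median log2 fold change -0.55, 68.8% lower against 23.5% of all genes). Shmt1, a serine hydroxymethyltransferase, was at 174, 169, 198 and 170.4 CPM in the wild type against 39.2, 109, 53.1, 120.0 and 65.4 CPM in Lmo2tg (log2FC -1.20, SE 0.23, adjusted p = 0.000142). Its mitochondrial relative Shmt2 was at 614, 525, 691 and 575 CPM in the wild type against 172, 418, 174, 621 and 311 CPM in Lmo2tg (log2FC -0.83, adjusted p = 0.0122, and 0.0794 with the compared groups only).

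Glycolysis genes were mixed, 9 lower and 4 higher of 22 (median log2 fold change -0.16, 40.9% lower against 23.5% of all genes), and 5 falls passed with the compared groups only. Hk2, the inducible hexokinase, was at 39.1, 38.7, 49.6 and 41.7 CPM in the wild type against 10.6, 32.5, 12.9, 31 and 15.2 CPM in Lmo2tg (log2FC -1.05, SE 0.26, adjusted p = 0.00153). Slc16a3, a lactate exporter, was at 1.19, 1.11, 1.9 and 1.72 CPM in the wild type against 6.27, 19.2, 7.04, 4.19 and 6.56 CPM in Lmo2tg, replicate 2 highest. The other rises were in Slc2a3, Hk1 and Eno2. Gapdh was at 2114, 1762, 2277 and 2285 CPM in the wild type against 755, 1645, 509, 2291 and 1264 CPM in Lmo2tg (log2FC -0.71, adjusted p = 0.0414), and its call ended with the compared groups only (0.139), without any of Lmo2tg replicates 1 (0.113), 3 (0.108) or 5 (0.0638) and without wild-type replicates 1 (0.0621), 3 (0.0803) or 4 (0.0787). Other genes hold 20.8% of the 101-base stretches of Gapdh, so its level is uncertain. Of 21 cholesterol synthesis genes, 13 fell and 1 rose (median log2 fold change -0.45, 61.9% lower against 23.5% of all genes). Fdft1, which encodes squalene synthase, was at 63.4, 62.3, 71.5 and 68.9 CPM in the wild type against 28.1, 36.4, 26.3, 50.3 and 38.6 CPM in Lmo2tg (log2FC -0.89, adjusted p = 1.38e-05), below wild type in every Lmo2tg library. Idi1, an isomerase whose 101-base stretches recur elsewhere in 15.8% of cases, was the member that rose, at 40.6, 41.9, 39.8 and 45.5 CPM in the wild type against 33.7, 82.8, 72.1, 86.4 and 61.5 CPM in Lmo2tg (log2FC 0.68, adjusted p = 0.00949).

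Cell death genes of the Bcl2 family rose on both sides. Bcl2, which protects cells, was at 28.4, 40.7, 35 and 24.3 CPM in the wild type against 138, 74, 74.9, 31.2 and 78.3 CPM in Lmo2tg (log2FC 1.30, adjusted p = 0.000169), with replicate 4 inside the wild-type range. Mcl1, another protective member, was at 192, 183, 157 and 170.0 CPM in the wild type against 435, 314, 391, 209.6 and 284 CPM in Lmo2tg (log2FC 0.90, SE 0.15, adjusted p = 3.68e-05). Replicate 4 was thus the lowest for both. Of the BH3-only killers, Bbc3 was at 5.19, 4.22, 3.25 and 3.49 CPM in the wild type against 18.9, 24.9, 7.48, 27.6 and 28.4 CPM in Lmo2tg. Bmf was at 20.2, 24.9, 18.3 and 16.2 CPM in the wild type against 67.7, 50.7, 48.2, 38.3 and 69.8 CPM in Lmo2tg. Bcl2l11, which encodes Bim, was at 44.3, 48.4, 46.4 and 58.5 CPM in the wild type against 148, 121, 87.3, 70.5 and 76.3 CPM in Lmo2tg (log2FC 1.03, adjusted p = 2.97e-05). None of these 3 overlapped wild type. Bcl2l2 fell, at 13.6, 13.1, 11.7 and 11.1 CPM in the wild type against 4.34, 6.42, 9.13, 7.95 and 8.9 CPM in Lmo2tg (log2FC -0.75, adjusted p = 0.00741). In all, 8 of 15 rose and 3 fell (median log2 fold change 1.00, 53.3% higher and 20% lower against 28.9% and 23.5% of all genes), and 1 fall was counted with the compared groups only or without Lmo2tg replicate 3.

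Trp53, which encodes p53, fell, at 344, 344, 372 and 358 CPM in the wild type against 190.3, 233, 192, 329 and 277 CPM in Lmo2tg (log2FC -0.54, adjusted p = 0.00225), while 13 of 21 genes of the p53 list rose and 4 fell (median log2 fold change 0.84, 61.9% higher and 19% lower against 28.9% and 23.5% of all genes). Trp53inp1, a stress-induced nuclear protein gene, was at 165, 190.3, 94.2 and 119 CPM in the wild type against 829.7, 535, 1049, 224 and 502 CPM in Lmo2tg (log2FC 2.15, SE 0.34, adjusted p = 2.08e-05). Gadd45a, a damage response gene, was at 6.75, 5.32, 5.77 and 3.38 CPM in the wild type against 21.4, 26.3, 21, 11.5 and 18.4 CPM in Lmo2tg (log2FC 1.89, adjusted p = 8.01e-07). Tnfrsf10b, the death receptor DR5, fell, at 7.47, 5.18, 7.58 and 8.56 CPM in the wild type against 2.35, 0.888, 1.83, 2.25 and 3.04 CPM in Lmo2tg (log2FC -1.80, SE 0.30, adjusted p = 4.05e-05), as did Ei24 and Cdkn1a. Trp53inp1, Gadd45a, Tnfrsf10b and Cdkn1a are all known p53 targets, and they went both ways.

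Interferon response genes varied between the Lmo2tg libraries. Of 22 tested, 14 rose and 2 fell (median log2 fold change 1.21, 63.6% higher and 9.09% lower against 28.9% and 23.5% of all genes), and both falls were lost with the compared groups only and without wild-type replicate 3 or Lmo2tg replicate 2 or 3. Mx1, an antiviral GTPase, was at 0.82, 1.11, 0.729 and 0.824 CPM in the wild type against 16, 2.42, 22.3, 1.92 and 8.59 CPM in Lmo2tg, with replicates 1 and 3 highest and 2 and 4 lowest. Irf7, the interferon regulatory factor, was at 7.79, 7.56, 7.77 and 7.4 CPM in the wild type against 65.3, 16.8, 30.0, 8.73 and 37.4 CPM in Lmo2tg (log2FC 2.05, SE 0.38, adjusted p = 0.000119), in the order 1, 5, 3, 2 and 4 from high to low. Both genes were lowest in replicate 4 among the Lmo2tg libraries. Bst2, an antiviral surface protein, was among the members that fell, at 74.1, 71.2, 85.5 and 64.8 CPM in the wild type against 46.8, 37.9, 41, 54.2 and 75.8 CPM in Lmo2tg (log2FC -0.53, adjusted p = 0.0238), and its call ended with the compared groups only (0.0506) and without wild-type replicate 3 (0.074) or Lmo2tg replicate 1 (0.0507), 2 (0.0655) or 3 (0.064).

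Among 17 genes of MHC class I and peptide loading, 5 rose and 3 fell (median log2 fold change 0.31, 29.4% higher and 17.6% lower against 28.9% and 23.5% of all genes). With the compared groups only, 2 rose and 1 fell. Without Lmo2tg replicate 1, 3 rose, and without wild-type replicate 3, 1 fell. B2m, the light chain of class I, was at 379.5, 448, 381 and 437 CPM in the wild type against 964, 597, 1378, 487 and 923 CPM in Lmo2tg (log2FC 1.08, SE 0.22, adjusted p = 0.000257). Nlrc5, the class I transactivator, was at 19.7, 21.6, 21.2 and 21.2 CPM in the wild type against 149, 37.4, 45.5, 17 and 30.5 CPM in Lmo2tg (log2FC 1.42, adjusted p = 0.00176). Replicate 1 held most of that rise, and without it the log2 fold change of Nlrc5 was 0.64. Psmb9, an immunoproteasome subunit, fell, at 98.1, 88.7, 101 and 88.7 CPM in the wild type against 58.6, 56.7, 43.4, 90.2 and 59 CPM in Lmo2tg (log2FC -0.61, adjusted p = 0.00131), as did the other subunits Psmb8 and Psmb10, which were not called without wild-type replicate 3 (adjusted p = 0.0528 and 0.0608) nor with the compared groups only (0.0988 and 0.0615). H2-T23, a nonclassical class I gene, rose too.

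Genes of homing, costimulation and the Gimap family rose in most members. The homing list gave 13 rises and no fall among 17 (median log2 fold change 1.63), the costimulatory and inhibitory receptors 17 of 19 (median 2.22), and the Gimap GTPases 8 of 8 (median 2.00). Rises passed in 76.5%, 89.5% and 100% of these lists and in 28.9% of all genes. Cd69, a receptor that appears soon after TCR signals, was at 4.06, 4.2, 5.49 and 3.41 CPM in the wild type against 158, 158, 75.2, 47.6 and 52 CPM in Lmo2tg (log2FC 4.52, SE 0.41, adjusted p = 5.18e-09), the smallest Lmo2tg value far above the largest in wild type. Itgb7, an integrin chain of gut homing, was at 10.8, 14.1, 8.45 and 8.96 CPM in the wild type against 304, 70.8, 369, 92.3 and 252 CPM in Lmo2tg (log2FC 4.36, SE 0.53, adjusted p = 6.51e-07). Itga4, its partner chain, was at 431, 565, 352 and 366 CPM in the wild type against 735, 692, 2321, 607 and 1081 CPM in Lmo2tg (log2FC 1.34, adjusted p = 0.000797), replicate 3 highest for both. Neither integrin gene overlapped wild type. S1pr1, the receptor by which mature thymocytes leave, was at 1.38, 2.63, 0.523 and 1.77 CPM in the wild type against 69, 13.2, 35, 7.71 and 12.7 CPM in Lmo2tg (log2FC 4.12, adjusted p = 7.98e-05, and 3.44 on the log2 scale without replicate 1). Cd40lg, the CD40 ligand of helper T cells, was at 0.0879, 0.0858, 0.127 and 0.241 CPM in the wild type against 20.7, 4.61, 3.76, 0.0718 and 3.73 CPM in Lmo2tg (log2FC 5.57, adjusted p = 3.4e-05, and 4.46 without replicate 1), and replicate 4 was below every wild-type library. Gimap3 was at 2.71, 3.17, 1.28 and 2.35 CPM in the wild type against 155, 11.6, 38.1, 8.76 and 27.3 CPM in Lmo2tg (log2FC 4.34, adjusted p = 6.5e-05, and 3.17 without replicate 1). Gimap6 was at 50.8, 71.7, 45.6 and 41.4 CPM in the wild type against 454, 132, 254, 84.2 and 187 CPM in Lmo2tg (log2FC 2.09, adjusted p = 8.63e-05), replicate 4 again the lowest of its group.

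Immediate early genes, which rise within minutes of receptor signals and also during tissue handling, rose in 17 of 19 (median log2 fold change 2.37, 89.5% against 28.9% of all genes). Nr4a1, a nuclear receptor gene that marks TCR signals, was at 33.8, 39.1, 44.8 and 25.3 CPM in the wild type against 347, 642, 157, 167 and 146 CPM in Lmo2tg (log2FC 3.03, SE 0.55, adjusted p = 8.89e-05). Nr4a3 was at 2.29, 1.4, 0.888 and 1.4 CPM in the wild type against 127, 202, 31.7, 17.1 and 23.8 CPM in Lmo2tg (log2FC 5.75, adjusted p = 6.55e-05, and 5.07 on the log2 scale without replicate 2). Replicates 2 and 1 were highest for both nuclear receptor genes. Egr1 was at 15.7, 11.3, 19.4 and 14.1 CPM in the wild type against 162, 115, 75, 35.4 and 60.9 CPM in Lmo2tg (log2FC 2.57, adjusted p = 4.92e-05), highest in replicate 1. Fos was at 33.1, 52.9, 74 and 34.7 CPM in the wild type against 178, 304, 180.5, 340.4 and 221 CPM in Lmo2tg (log2FC 2.33, adjusted p = 1.48e-05), highest in replicates 4 and 2. The order of the libraries thus differed between these genes. Dusp2, a phosphatase of MAP kinases, was at 40.1, 36.2, 37.1 and 32.5 CPM in the wild type against 174, 158, 151, 104 and 214 CPM in Lmo2tg (log2FC 2.13, adjusted p = 6.47e-08). Of 10 heat shock genes, 4 rose and 2 fell (median log2 fold change 0.05, 40% higher and 20% lower against 28.9% and 23.5% of all genes), and 2 rises were counted without wild-type replicate 4 or Lmo2tg replicate 4. Likewise 1 fall was counted without wild-type replicate 4 or Lmo2tg replicate 1 or 5, and none with the compared groups only. With limma, 2 rises were counted. Hspa1b, which shares 49.7% of its 101-base stretches with its copy Hspa1a and is uncertain for that reason, was at 251, 399, 344 and 196 CPM in the wild type against 500.5, 608, 1042, 1485 and 1088 CPM in Lmo2tg (log2FC 1.67, adjusted p = 0.00292). The part of sample handling in these results was not tested.

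**Figure D4:**
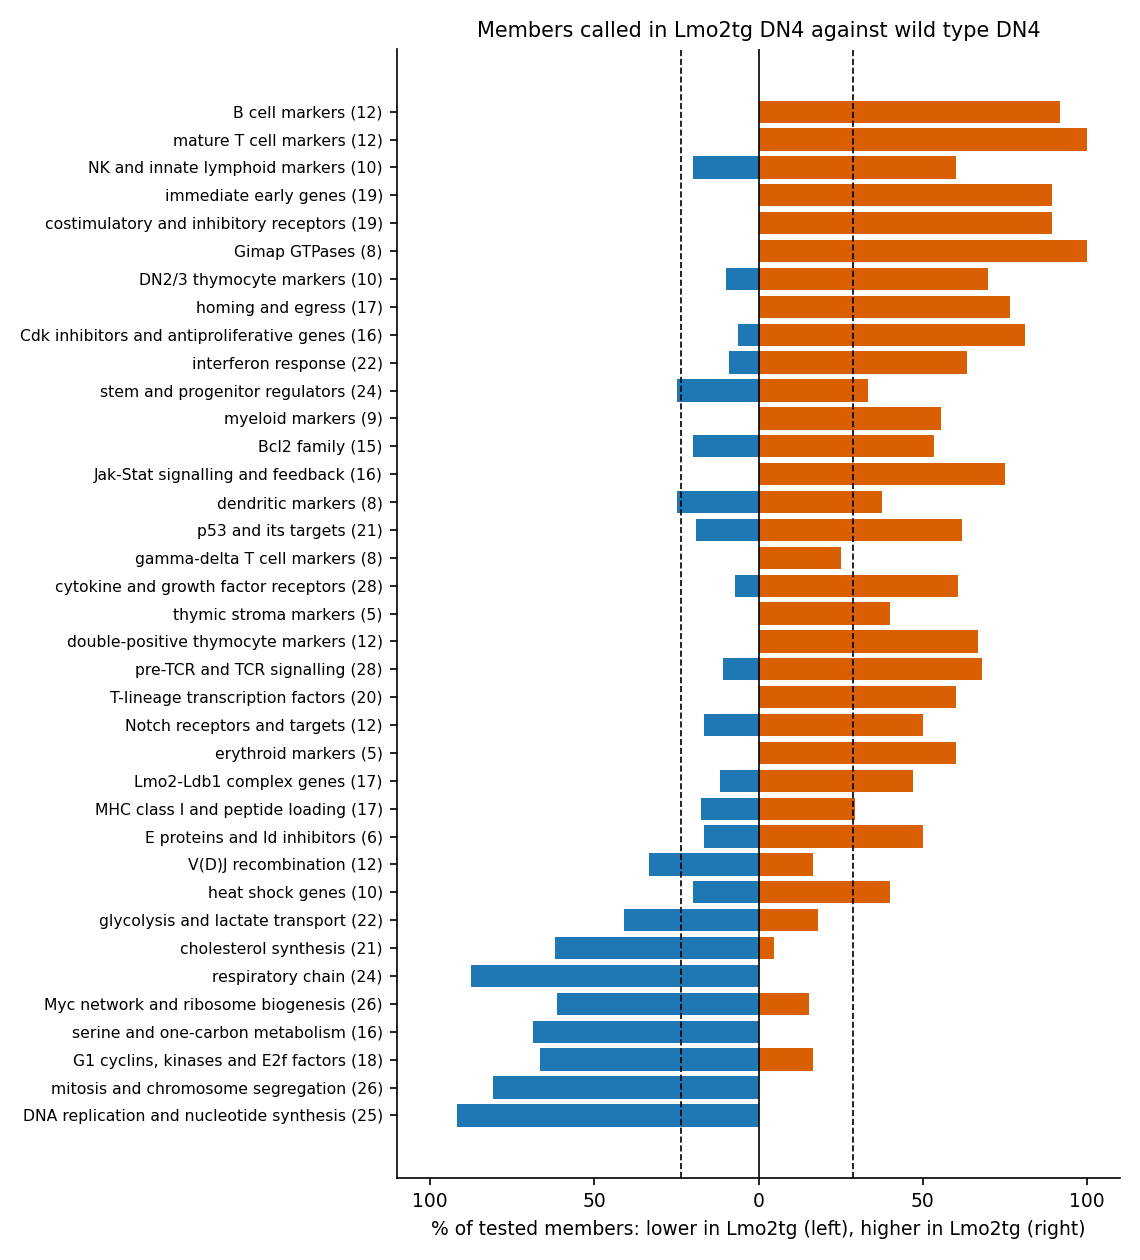
Percent of tested members called lower (left) and higher (right) in Lmo2tg DN4 for each gene list with at least 5 tested members, ordered by median log2 fold change, with dashed lines at the 23.5% and 28.9% of all 14371 genes. Gimap, mature T, B cell, immediate early and costimulatory lists lie at the right, and replication, mitosis and respiratory chain lists at the left.

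Markers of cells that a DN4 gate could also hold moved with these results. Double-positive thymocyte markers rose in 8 of 12, with a summed level of 1163 to 1315 CPM in wild type and 1546 to 3635 CPM in Lmo2tg. Mature T cell markers rose in 12 of 12, with a summed level of 264 to 456 CPM in wild type and 684 to 2315 CPM in Lmo2tg. Markers of DN2/3 cells rose in 7 of 10 (4 with the compared groups only), and their sum was 155 to 196 CPM in wild type and 286 to 621 CPM in Lmo2tg. The fall among the DN2/3 markers was in Ptcra. Rises passed in 66.7%, 100% and 70% of these 3 lists and in 28.9% of all genes. The 3 sums did not overlap between genotypes, and some genes stand both in these lists and in the lists above. Lack of overlap was not particular to these markers. It also held for the sums of many other lists, among them the Jak-Stat (1349 to 1394 CPM in wild type, 2173 to 3203 CPM in Lmo2tg), Bcl2 family, Gimap and mitosis lists. Their part in the differences in Cd4, homing, costimulatory and Gimap genes, and in the cell division genes, was not tested.

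B cell markers rose in 11 of 12 (7 without Lmo2tg replicate 1), or 91.7% against 28.9% of all genes, with a summed level of 12.3 to 15.9 CPM in wild type and 14.9 to 124 CPM in Lmo2tg. Ms4a1, which encodes CD20, was at 0, 0, 0 and 0.0254 CPM in the wild type against 17.6, 0.888, 4.47, 0.0479 and 3.64 CPM in Lmo2tg (log2FC 9.19, adjusted p = 3.32e-05), with 7.95 without Lmo2tg replicate 1 and 11.30 without wild-type replicate 4, the only wild-type library with a count. It was highest in replicate 1 and lowest in replicate 4. Pax5, the B-lineage commitment factor, had no count in wild type, and Lmo2tg held 1.82, 0.0696, 0.223, 0.0957 and 0.698 CPM (adjusted p = 0.00075). Cd74, the invariant chain of MHC class II, listed with dendritic markers, was at 1.08, 0.415, 0.539 and 0.444 CPM in the wild type against 104, 16.7, 25.1, 6.1 and 43 CPM in Lmo2tg (log2FC 5.97, adjusted p = 1.1e-06, and 5.19 without replicate 1). Replicate 1 was the highest for each of these 3 genes. The part of B cells in the differences above was not tested.

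Cpa3, a carboxypeptidase gene of mast cells that early thymocyte progenitors also express, was at 1.76, 5.45, 1.85 and 3.12 CPM in the wild type against 497, 136, 1577, 198 and 887 CPM in Lmo2tg (log2FC 7.75, SE 1.07, adjusted p = 3.34e-06, and 7.14 on the log2 scale without replicate 3). Its libraries ranked as for Hhex: replicate 3, then 5, 1, 4 and 2. Other mast cell and basophil markers were low or without counts. Mcpt4, Fcer1a and Tpsb2 had no count in any of the 9 libraries, Ms4a2 and Mcpt8 had none in Lmo2tg, and Hdc ran from 0.203 to 0.454 CPM in wild type and from 0.479 to 1.48 CPM in Lmo2tg (log2FC 1.67, adjusted p = 0.00313). Of 10 NK and innate lymphoid markers, 6 rose and 2 fell (60% and 20%, against 28.9% and 23.5% of all genes, and 1 fall with the compared groups only or without wild-type replicate 4), with sums of 380.3 to 526 CPM in wild type and 262 to 517 CPM in Lmo2tg. Nkg7, a granule protein gene, rose, at 4.01, 7.84, 3.62 and 4.35 CPM in the wild type against 44.8, 18.5, 82.3, 17.1 and 67.8 CPM in Lmo2tg (log2FC 3.22, SE 0.41, adjusted p = 1e-06). Gzma, a granzyme, fell, at 362, 506, 406 and 471 CPM in the wild type against 175, 234, 247, 238 and 404 CPM in Lmo2tg (log2FC -0.75, adjusted p = 0.0141). The sums overlapped, Nkg7 stood apart in all 5 Lmo2tg libraries, and the part of NK cells in these values was not tested. Sums of myeloid markers were 15 to 16.7 CPM in wild type and 19 to 43.8 CPM in Lmo2tg, and Elane was at 0 throughout. Of the 9 tested, 5 rose (55.6% against 28.9% of all genes), 2 with the compared groups only and 3 without wild-type replicate 4. Erythroid markers summed to 284 to 345 CPM in wild type and 323 to 619 CPM in Lmo2tg, mostly Tfrc, while 4 globin genes had no count in any of the 9 libraries. Alas2, the erythroid heme synthesis enzyme, was at 0.63, 0.701, 0.666 and 0.761 CPM in the wild type against 7.93, 14.1, 15.2, 3.52 and 18.9 CPM in Lmo2tg (log2FC 4.11, SE 0.45, adjusted p = 1.36e-07), with 15.5% of its exon length overlapped on the opposite strand. Gamma-delta T cell markers summed to 272 to 409.6 CPM in wild type and 289.9 to 818 CPM in Lmo2tg. Of the 8 tested, 2 were called higher (25% against 28.9% of all genes), 0 of them without wild-type replicate 1 or Lmo2tg replicate 5. Dendritic markers summed to 119 to 141 CPM in wild type and 93.8 to 215 CPM in Lmo2tg, megakaryocyte markers to 1.94 to 3.77 CPM in wild type and 1.88 to 3.92 CPM in Lmo2tg with Pf4 and Ppbp at 0, and stroma markers to 86.8 to 121 CPM in wild type and 112 to 219 CPM in Lmo2tg.

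The effect of the transgene at DN4 was then set against its effect at DN2/3, measured in 4 wild-type and 5 Lmo2tg libraries of that stage. The difference between the stages passed the test in 3684 of 14371 genes (25.6%), with 2106 more positive at DN4 (14.7%) and 1578 more negative (11%). Within a genotype, libraries of the 2 stages with the same number deviated together, and with that number as a replicate block within genotype the counts were 3704 and 3402. Leaving out single libraries gave 886 to 2534 more negative genes, and with the Lmo2tg; Ldb1-KO libraries left out of the fit 1344 and 802 genes passed. Of the 105 genes chosen by the naming rule, 47 differed between stages, all 47 also with the block, and 23 more with the block alone. The rule chose most of them by their DN4 effect, which is part of the stage difference. Their share therefore cannot be set against that of all genes.

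Hhex held 2.59, 3.33, 3.51 and 3.74 CPM in the wild type against 67.3, 54.9, 89.6, 57.3 and 66.9 CPM in Lmo2tg at DN2/3, so the Lmo2tg levels of the stages overlapped while the wild-type level was lower at DN4 (log2 difference 5.30, SE 1.16, adjusted p = 0.00317). Erg held 47.8, 49.1, 44.9 and 45 CPM in the wild type against 84.9, 31.4, 81.8, 48.1 and 72.4 CPM in Lmo2tg at DN2/3, with overlapping groups there (log2 difference 5.91, SE 1.06, adjusted p = 0.000631). In both genes the Lmo2tg levels were thus closer between the stages than the wild-type levels were. Kit ran from 70.1 to 88.6 CPM in wild type and 109.5 to 199 CPM in Lmo2tg at DN2/3 (log2 difference 1.49, SE 0.43, adjusted p = 0.0155). Cpa3 ran from 60.2 to 106 CPM in wild type and 378 to 862 CPM in Lmo2tg there (log2 difference 4.93, SE 1.14, adjusted p = 0.00461). For these 4 genes wild type DN2/3 was above wild type DN4 in every library.

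**Figure D5:**
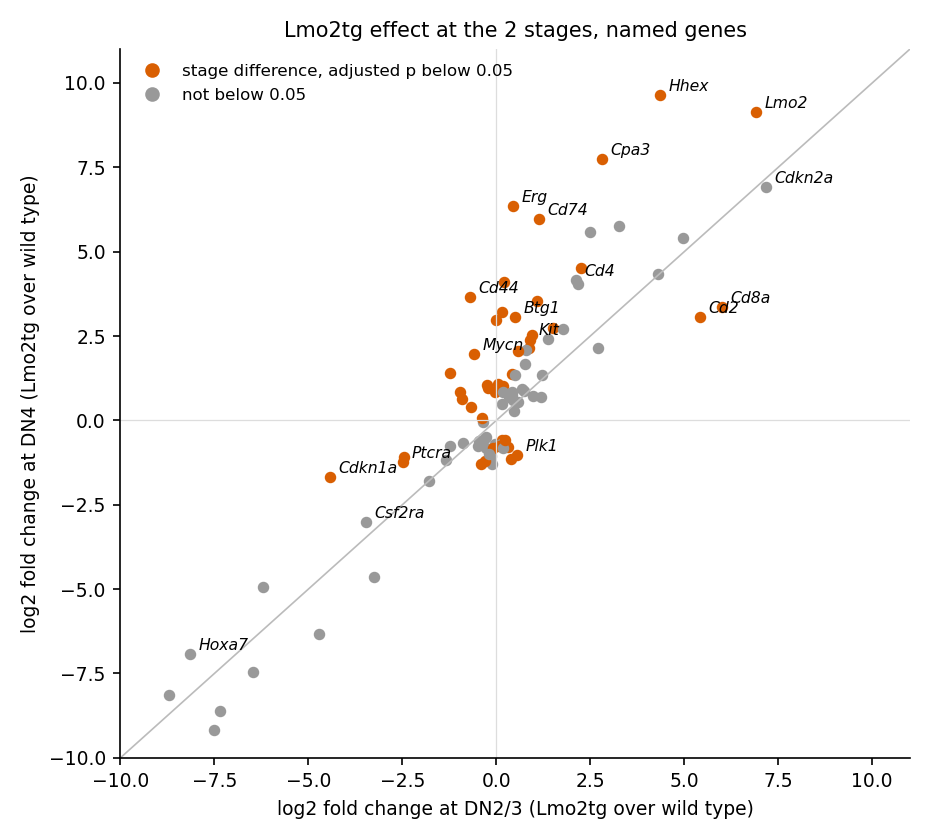
Log2 fold change of Lmo2tg over wild type at DN4 (vertical) against DN2/3 (horizontal) for 96 of the 105 genes named by the rule, those with a count in both groups of both stages, with the 44 whose effect differed between stages in orange and a diagonal line of equal effects. Hhex, Erg, Cpa3 and Cd44 lie above the diagonal, and Cd8a, Cd2 and Plk1 below it.

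Division genes differed by stage in the other direction. The difference was negative and passed in 26 of the 26 tested mitosis genes (median -1.29 on the log2 scale), against 11% of all genes. It did so in 12 of 25 genes of DNA replication and nucleotide synthesis, with 0 positive. Among the 18 G1 cyclins, kinases and E2f factors, it was negative and passed in 10, and positive in 2. In wild type the mitosis and chromosome segregation sum was 2735, 2553, 2832 and 2917 CPM at DN2/3 and higher in every DN4 library. In Lmo2tg it was 2118, 5697, 3440, 5097 and 3122 CPM at DN2/3, a range that overlaps the DN4 values above. Mki67 ran from 515 to 628 CPM in wild type and 443 to 1111 CPM in Lmo2tg at DN2/3 (log2 difference -1.11, SE 0.30, adjusted p = 0.011). Cdkn1a was at 48.7 to 66.6 CPM in wild type and 0.869 to 5.29 CPM in Lmo2tg at DN2/3, a larger fall than at DN4 (log2 difference 2.72, SE 0.56, adjusted p = 0.00195). Cd8a was at 0.473 to 1.26 CPM in wild type and 25.6 to 92.7 CPM in Lmo2tg at DN2/3 (log2 difference -2.66, SE 0.69, adjusted p = 0.00892). The rise of this coreceptor gene was thus larger as a fold at the earlier stage, from a lower wild-type level. In CPM it was larger at DN4, with means of 33.6 in wild type and 343 in Lmo2tg, against 0.718 and 46.1 at DN2/3.

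Immune and stem cell lists leaned toward a more positive effect at DN4. The stage difference was positive and passed in 13 of 24 stem and progenitor regulators, in 15 of 22 interferon response genes and in 8 of 10 DN2/3 markers, with none negative in these 3 lists, against 14.7% and 11% of all genes. The fold effect on Lmo2 itself was larger at DN4 (log2 difference 2.22, SE 0.50, adjusted p = 0.00375), with 0.179 to 0.41 CPM in wild type and 28.2 to 37.5 CPM in Lmo2tg at DN2/3. Wild-type means were near the floor, 0.272 CPM at DN2/3 and 0.0778 CPM at DN4, against 32.6 and 45.1 CPM in Lmo2tg. As a fold, the wild-type level thus differed more between the stages than the Lmo2tg level did. For Cd4 the stage difference did not pass (log2 difference 2.03, SE 1.14, adjusted p = 0.186), nor did it for Stat5b (log2 difference 0.12, SE 0.13, adjusted p = 0.485), Trib2 (log2 difference -0.56, SE 0.31, adjusted p = 0.175, though -0.62 and 0.0277 with the replicate block within genotype) or Cdkn2a (log2 difference -0.25, SE 1.44, adjusted p = 0.917).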

How the data were processed

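RNA of thymocyte subsets was sequenced, per the labels' protocols, from TruSeq V2 libraries as paired-end 101 base reads on a HiSeq2500. The authors deposited whole-number read counts per gene symbol, 1 column per library. Per the submitters' processing notes the tools included STAR 2.5.2a and featureCounts 1.4.6-p3 with mm10. The annotation, strand setting and treatment of multi-mapping reads are unknown: not given in the sources used here. All 28 columns matched a library's labels, and 0 were left without one.

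Counts were filtered with filterByExpr by group (14371 genes kept), scaled by TMM and tested with edgeR 4.0.16 (R 4.3.3) quasi-likelihood over 28 libraries in 6 groups, with 22 residual degrees of freedom and Benjamini-Hochberg adjustment at 0.05. The SE is the log2 fold change divided by the root of F. A fold given as at least a value sets wild type, where it had no count, to 3 counts in all. Alternatives were other scalings, no filter, the compared groups only, DESeq2 1.42.0, limma 3.58.1 with a variance weight per group (chosen after seeing the data), a replicate block, and each DN4 library left out. Simulated counts of 14139 genes in the DN4 comparison gave back 67% of 100 changes of log2 size 1 and 84% of 100 of size 2, with 0.0502% of unchanged genes called. The simulation gave each gene the same dispersion in every group and changed few genes. In the data the median SD of log2 CPM was 0.425 in Lmo2tg DN4 and 0.164 in wild type DN4, so these rates need not hold there.

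The gene lists and the libraries compared were chosen with earlier results of these data known. Named by rule were 105 genes: Lmo2, Ldb1 and 7 stage markers, the 8 largest rises and 8 largest falls among called genes that reached a mean of 5 CPM on the higher side and whose groups did not overlap (unnamed genes and receptor segments left out), and from each list the called members with the largest change at that level and the highest CPM in its main direction, and the largest change in the other. Another 79 genes were chosen after their values were seen. A few genes are not reported here, though counts over lists and named genes include them. Same-numbered libraries of the 2 stages deviated together (r of 0.153 to 0.332 in wild type and 0.513 to 0.65 in Lmo2tg), so numbers pair the stages within a genotype. Across genotypes the r was -0.179 to 0.00989, so no pairing was used there. Exon overlaps and shared 101-base stretches are from GENCODE M21 (23376 of 24421 symbols matched), and promoters from RefSeq, which held 80 of the 105 genes.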

Additional observations from a re-analysis of the deposited data

Results flagged for a closer look

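Of 200 groups of 4 or 5 libraries considered for a library far from the others, 20 held one. The rule flags about 1 in 20 groups of normally distributed values, and CPM need not be so distributed. Groups with no count in any library could not be checked, and a single library with counts is always flagged. Of these 20, 10 were Lmo2tg replicate 1. It was the highest of its group for Lmo2 (68.9 CPM), Cd4 (422), Zbtb7b (57.8), Id2 (79.7), Il6ra (25.6), Nlrc5 (149), Cd40lg (20.7), Gimap3 (155) and Ms4a1 (17.6), and for Mira, where it was the only library with a count (0.0965). Lmo2tg replicate 2 stood apart for Slc16a3 (19.2 CPM) and as the only library with counts of Msantd3 (0.0348). Lmo2tg replicate 3 was high for Itga4 (2321 CPM) and low for Stat5b (444), and replicate 5 was high for Thsd4 (65.5). In wild type, replicate 1 was high for Cd4 (12 CPM), replicate 2 for Id2 (4.05), replicate 3 for Heyl (1.17) and Cdk4 (765), and replicate 4 was the only library with a count of Ms4a1 (0.0254).

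The effect of the transgene differed between DN4 and DN2/3, by the interaction term in edgeR, in 2106 genes with a more positive effect at DN4 and 1578 with a more negative one, and in 47 of the 105 genes named by rule, of which 44 are given. The rule chose most of these genes by their DN4 effect, which is part of the difference, so their number is no separate support. Values are log2 differences of the 2 effects, and positive values mean a more positive effect at DN4. Among stem and progenitor genes and genes of the T-cell receptor path these were Lmo2 2.22, Hhex 5.30, Erg 5.91, Kit 1.49, Cd44 4.35, Il2ra 1.80, Cd8a -2.66, Cd2 -2.34, Cd3e 0.45, Ptcra 1.25, Ptprc 1.20, Rag2 1.37, Heyl 1.25 and Id2 2.99. Among receptors, signalling and immune genes they were Il2rg 0.86, Jak2 0.98, Mx1 2.47, Nlrc5 2.64, B2m 1.03 and Cd69 2.26. Among division, growth and metabolic genes they were E2f7 -0.87, Rbl2 0.86, Mcm6 -0.74, Plk1 -1.59, Mki67 -1.11, Btg1 2.57, Cdkn1a 2.72, Mxd3 -1.52, Mycn 2.56, Slc16a3 1.61, Atp5o -0.75, Atp5b -0.81, Shmt1 -0.89, Mcl1 0.80, Trp53inp1 1.28 and Hspd1 -0.79. Among markers of other cells they were Nkg7 3.05, Cd79b 1.54, Cpa3 4.93, Cd74 4.84, Alas2 3.89 and Gp1ba 1.06. Ubqlnl (8.37) and Esrp1 (5.33) had no count in wild type DN4, so their fitted differences depend on the prior count.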

How the results depend on the processing

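At DN4 the counts of changed genes stayed within 1.5 times the reported ones with other scalings (RLE 4118 higher and 3476 lower, upper quartile 4019 and 3576), without the filter (4177 and 3411 of 19013 genes), with DESeq2 (4429 and 3593) and limma (3430 and 3153), and without single DN4 libraries (3566 to 4521 higher, 2886 to 3815 lower). The exception was the fit of the compared groups only, with 2028 lower genes. With replicate number as a replicate block across genotypes the counts were 4215 and 3862 at DN4 and 2544 and 2347 for the stage difference, and these numbers do not pair genotypes. With the block nested in genotype, the stage difference gave 3704 more positive and 3402 more negative genes. Without the Lmo2tg; Ldb1-KO libraries it gave 1344 and 802. Leaving out single libraries gave 886 to 2534 more negative genes: 886 without wild type DN2/3 replicate 2, 1051 without wild type DN2/3 replicate 4, 1010 without wild type DN4 replicate 3, 1007 without Lmo2tg DN2/3 replicate 2, 977 without Lmo2tg DN4 replicate 1 and 2534 without Lmo2tg DN4 replicate 4. Of the 105 genes named by rule, 14 lost their call with the compared groups only, 8 with limma, 1 with the replicate block and 1 to 7 without a single library. None of the called genes among the 105 reversed in any setting run, and none lost a call with the other scalings, without the filter or with DESeq2. Ldb1, which was not called, ran from -0.14 to 0.05 on the log2 scale over the settings. Limma gave smaller log2 fold changes for genes carried by 1 library, such as Cd4 (3.29), Zbtb7b (3.48), Il6ra (2.76) and Cd40lg (4.47). It also did so for genes with no count in wild type that were not carried by 1 library, such as Faxc (9.82), Esrp1 (9.86) and Slc22a4 (9.73). For Hhex it gave a larger one (10.58). The cause of these shifts was not tested. Depth of 32.73 M counts or more per library limits values near a few counts, and 4 against 5 libraries with a wide Lmo2tg spread limit small changes.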
